A study of Mus musculus with 21 samples.

Results

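The messenger RNAs of 10 genes that mark GABAergic interneurons were followed in whole brains of 21 mice. The members were taken by symbol: Gad1, Gad2, Slc32a1, Pvalb, Sst, Vip, Npy, Cck, Reln and Lamp5, which were all among the 16318 genes of the deposited table and all among the 16285 genes tested. All mice were SAMP8, a senescence-accelerated inbred strain used as a model of sporadic Alzheimer's disease, with no transgene, and had reached 6 months of age when dosing ended. Of these, 12 (6 female and 6 male) received phosphate-buffered saline (PBS). The other 9 (3 female and 6 male) received HsTX1[R14A], a peptide that blocks the potassium channel Kv1.3, at 1 mg/kg. Dosing was under the skin on alternate days for 8 weeks. Each library was 1 mouse, and every mouse was of the SAMP8 strain, so the values compare treatments within that strain. The question was whether the treatment was accompanied by a difference in the transcripts of inhibitory neurons.

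GABAergic interneurons are the local inhibitory cells of cortex and hippocampus. They make GABA from glutamate with the decarboxylases GAD67 (Gad1) and GAD65 (Gad2) and load it into vesicles with the transporter VGAT (Slc32a1). Their classes are told apart by a calcium buffer (Pvalb), by neuropeptides (Sst, Vip, Npy, Cck), by the secreted matrix protein reelin (Reln) and by a lysosome-associated membrane protein (Lamp5). None of these is restricted to interneurons in a whole brain: striatal projection neurons and Purkinje cells also use the first 3, pyramidal cells make Cck, and Pvalb is abundant in cerebellum. In whole-brain RNA, fewer cells of a class and less RNA per cell cannot be told apart.

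Reln and Slc32a1, which differed most upward after HsTX1[R14A], Vip, which differed most downward, and Sst, the member with the smallest difference, are shown by the 250 bases before their RefSeq start (GRCm38.p6, strand of the gene, 5′ to 3′). Capitals mark TGACG on either strand (TGACG or CGTCA), the core of the cAMP response element, which overlaps the full palindrome TGACGTCA.
Reln, chr5:22344706-22344955 (minus strand): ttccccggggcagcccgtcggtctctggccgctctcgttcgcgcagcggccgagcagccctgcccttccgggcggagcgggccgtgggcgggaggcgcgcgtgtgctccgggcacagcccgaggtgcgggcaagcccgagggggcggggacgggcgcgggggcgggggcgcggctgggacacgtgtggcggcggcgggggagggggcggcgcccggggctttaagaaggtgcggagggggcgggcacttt
Slc32a1, chr2:158610508-158610757 (plus strand): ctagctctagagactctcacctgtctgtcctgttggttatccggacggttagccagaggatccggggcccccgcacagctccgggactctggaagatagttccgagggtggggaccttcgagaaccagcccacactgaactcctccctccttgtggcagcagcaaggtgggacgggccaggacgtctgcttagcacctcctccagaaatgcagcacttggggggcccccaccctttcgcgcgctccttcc
Vip, chr10:5638968-5639217 (plus strand): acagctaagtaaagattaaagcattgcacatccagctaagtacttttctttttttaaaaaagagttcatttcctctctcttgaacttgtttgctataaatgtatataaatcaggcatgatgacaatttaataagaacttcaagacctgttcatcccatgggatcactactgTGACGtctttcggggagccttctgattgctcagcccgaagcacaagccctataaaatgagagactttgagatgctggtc
Sst, chr16:23890845-23891094 (minus strand): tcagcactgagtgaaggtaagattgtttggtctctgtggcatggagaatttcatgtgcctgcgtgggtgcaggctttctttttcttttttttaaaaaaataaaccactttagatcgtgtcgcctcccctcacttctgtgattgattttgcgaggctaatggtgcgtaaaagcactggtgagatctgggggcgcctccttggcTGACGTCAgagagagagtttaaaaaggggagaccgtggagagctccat
The full palindrome was found in 1 of the 10 members, Sst, with its first base at -48 from the start, and in 1.55% of the 32851 windows of the same length. TGACG on either strand was found in 4 members (Gad2, Sst, Vip and Cck) and in 17.8% of windows, and in Vip it began at -79. The Reln window was 80.0% G or C with 37 CpG, above 98.7% of all windows in GC content. The Slc32a1 window was 62.4% and the Vip window 38.4% G or C, against a median of 52.4%. Neither the Reln nor the Slc32a1 window held TGACG. These letter matches are a description of the windows, and no binding was measured.

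Values are given as CPM, a gene's count divided by the size of its library, with library sizes scaled by the trimmed mean of M values (TMM). Estimated counts per mouse summed to between 14917174 and 36207554 with PBS (median 25193122.5) and between 17552413 and 47613792 with HsTX1[R14A] (median 24465565). The lowest estimated count of any member in any mouse was 375, for Vip, so the spread between mice exceeded counting error. Xist was at 261 CPM or more in every female and at 3.39 or less in every male, as labeled. The count columns carried 2 forms of library name, SAMP8 (10 PBS and 5 HsTX1[R14A] mice) and SAMP (2 and 4), whose meaning is not given in the sources used here. General neuron markers were present in every mouse, with sums from 6193 to 10077 CPM. Libraries also differed in regional markers. PBS female 103 had the lowest sum of 8 excitatory neuron markers, 1590 CPM, where the other mice ran from 2565 to 6396, and the lowest cerebellar sum, 232 CPM. In PBS mice the cerebellar sum (median 536 CPM) was mostly Itpr1, with a mean of 475 CPM. A low sum there mostly reports Itpr1, and whether it also means less cerebellar tissue was not tested. HsTX1[R14A] female 71 had the lowest striatal sum (464 CPM, others 872 to 1945) and HsTX1[R14A] male 74 the highest cerebellar sum (1355 CPM, others 232 to 717).

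Per length of the longest transcript, the 10 genes spanned a wide range of levels. Sst was the highest at 267 ± 41.6 CPM per kb (SD, n = 21), followed by Cck at 216 ± 51.7, Npy at 122 ± 29.6 and Gad1 at 111 ± 23.8. Pvalb (67.0 ± 26.8), Lamp5 (66.1 ± 21.8), Gad2 (53.3 ± 9.87) and Slc32a1 (36.0 ± 12.5) lay in the middle, and Vip (13.8 ± 4.67) and Reln (4.83 ± 1.93) were the lowest. Sst exceeded Cck in 17 of 21 mice and Cck exceeded Npy in all 21. Npy exceeded Gad1 in 11 of 21 mice and Pvalb exceeded Lamp5 in 8 of 21, so the members of these neighboring pairs did not differ beyond their spread. Reln was also the longest transcript at 11699 bases, while Npy (566 bases) and Sst (721 bases) were the shortest.

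**Figure D1:**
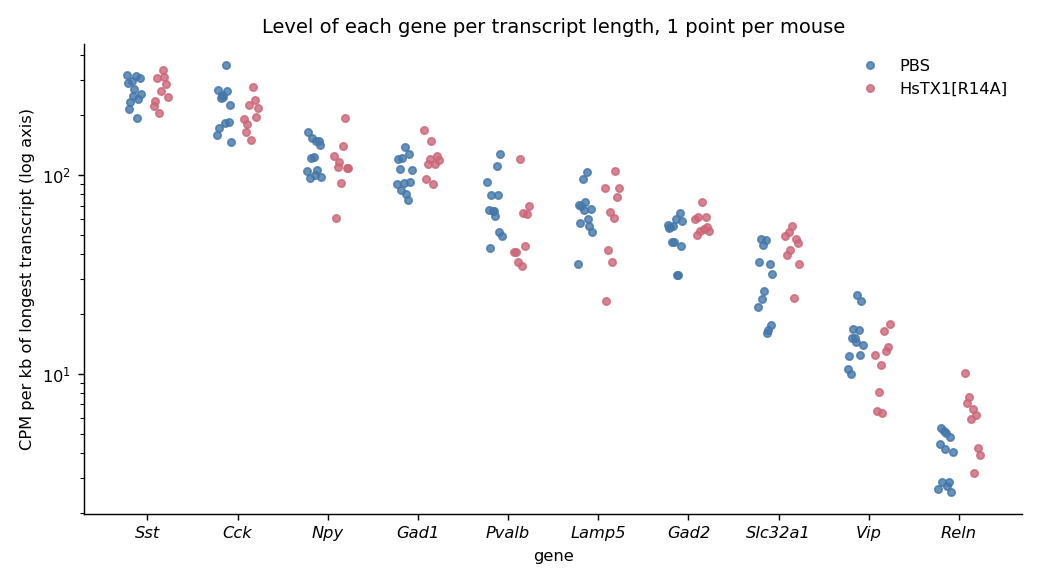
Level of each gene in CPM per kb of its longest transcript (log axis), with 1 point per mouse and colors for treatment. Sst and Cck stand at the top with means of 267 and 216 CPM per kb, and Reln at the bottom with 4.83.

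Relative to PBS, 3 of the 10 genes differed after HsTX1[R14A] at an FDR of 0.05 (edgeR's quasi-likelihood test with sex in the model, Benjamini-Hochberg adjustment over all genes). Reln and Slc32a1 rose and Vip fell. Over all genes tested, 31.6% passed the same threshold (15.5% higher and 16.1% lower), so 3 of 10 is a share near the background. Gad1, Gad2, Pvalb, Sst, Npy, Cck and Lamp5 did not pass. The values of the PBS and HsTX1[R14A] mice overlapped for every one of the 10 genes.

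**Figure D2:**
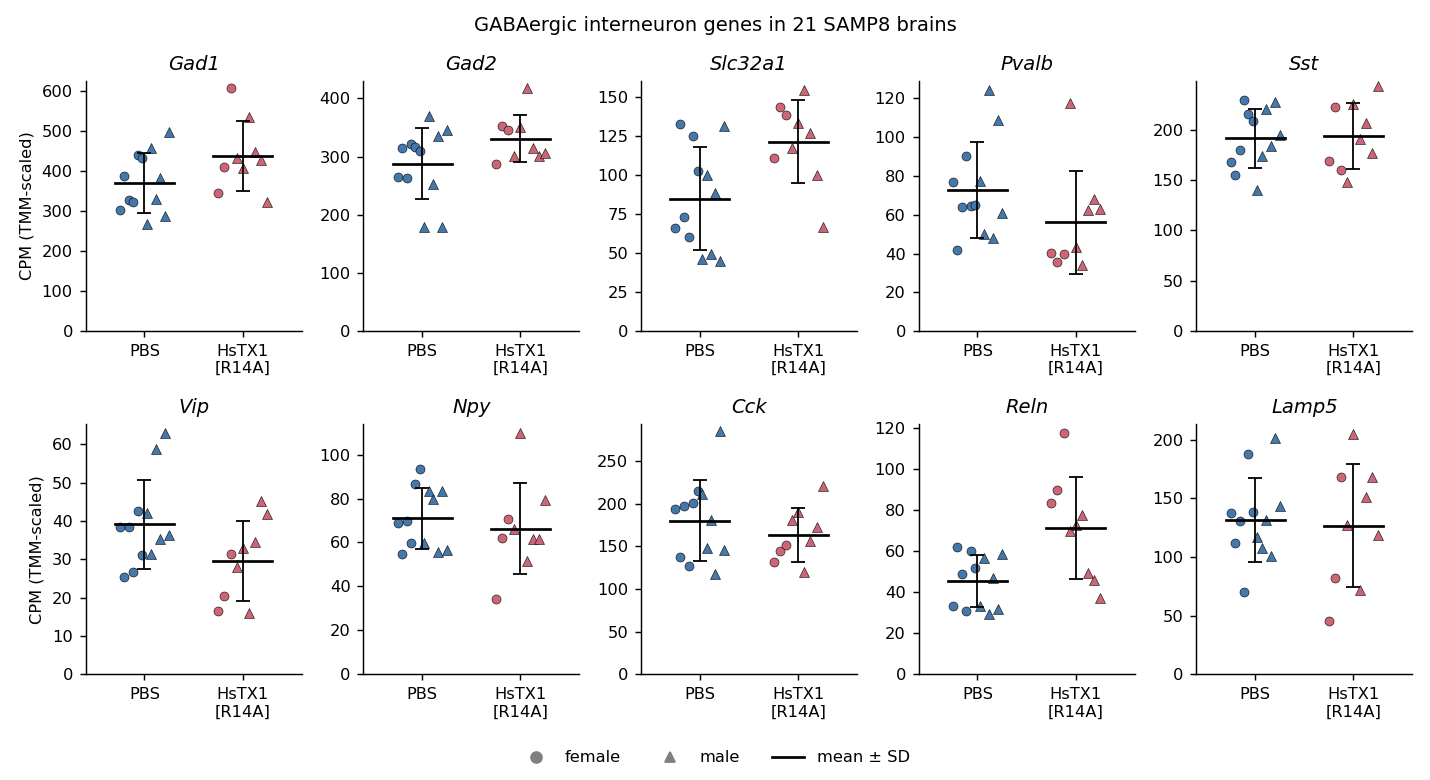
CPM (TMM-scaled) of each of the 10 genes in each mouse, with circles for females, triangles for males and black bars for the mean ± SD of 12 PBS and 9 HsTX1[R14A] mice. For Reln, 6 of 9 HsTX1[R14A] mice lie above the highest PBS mouse, and for Sst the groups share their range.

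The enzymes of GABA synthesis did not pass the test. Gad1 (ENSMUSG00000070880, chr2:70553072-70602014, plus strand) ran from 268 to 498 CPM with a median of 358 in PBS mice. In HsTX1[R14A] mice it ran from 325 to 609 CPM with a median of 430. In 7 of 9 treated mice Gad1 was above the PBS median, and HsTX1[R14A] female 98 and male 88 exceeded every PBS mouse. The log2 fold change was 0.25 (SE 0.13, 95% interval -0.02 to 0.51, edgeR adjusted p = 0.128). Gad2 (ENSMUSG00000026787, chr2:22622205-22693874, plus strand) ran from 179 to 370 CPM in PBS mice (median 312) and from 287 to 418 CPM in HsTX1[R14A] mice (median 315). Its medians were close, and the lowest values belonged to PBS males 101 and 82. Its log2 fold change was 0.21 (SE 0.12, 95% interval -0.04 to 0.46, edgeR adjusted p = 0.171). These mice, PBS males 82 and 101, were also the lowest in Gad1 and had the lowest striatal marker sums among PBS mice (872 and 1068 CPM), and the part of this in the difference was not tested.

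Slc32a1, the vesicular GABA transporter (ENSMUSG00000037771, chr2:158610767-158615748, plus strand), was 1.47-fold higher after HsTX1[R14A]. It ran from 45.1 to 133 CPM in PBS mice (median 80.9, mean 85.1 ± 33.1, SD, n = 12) and from 67.1 to 155 CPM in HsTX1[R14A] mice (median 127, mean 122 ± 26.5, SD, n = 9). In 8 of 9 treated mice Slc32a1 was above the PBS median and 4 exceeded every PBS mouse, while HsTX1[R14A] male 93 lay among the lower PBS mice. The log2 fold change was 0.56 (SE 0.20, 95% interval 0.14 to 0.98, edgeR adjusted p = 0.0421). In mice of the SAMP8 name form, means were 76.4 ± 28.9 CPM (n = 10) and 119 ± 34.1 CPM (n = 5), with a log2 fold change of 0.68 (edgeR adjusted p = 0.0825). In the SAMP form, means were 128 ± 4.72 CPM (n = 2) and 125 ± 17.3 CPM (n = 4), with a log2 fold change of -0.02 (edgeR adjusted p = 0.982). With the name form as a covariate the log2 fold change was 0.48 and did not pass (edgeR adjusted p = 0.0780), nor did it without the sex term (0.52, edgeR adjusted p = 0.0669). The call was kept in 8 of 21 fits that each left out 1 mouse. It was lost without PBS female 103, 73 or 85, PBS male 101, 82 or 90, HsTX1[R14A] female 98, 71 or 72, or HsTX1[R14A] male 74, 88, 81 or 89, with an edgeR adjusted p of up to 0.0798 (without PBS male 90).

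Reln, which encodes the secreted glycoprotein reelin (ENSMUSG00000042453, chr5:21884454-22344702, minus strand), showed the largest difference of the 10, 1.61-fold higher after HsTX1[R14A]. It ran from 29.6 to 62.1 CPM in PBS mice (median 47.9, mean 45.3 ± 12.8, SD, n = 12) and from 37.1 to 117 CPM in HsTX1[R14A] mice (median 72.4, mean 71.3 ± 24.9, SD, n = 9). Of the treated mice, 6 of 9 lay above the highest PBS mouse, and 0 of 12 PBS mice lay above the treated median. HsTX1[R14A] males 93, 92 and 89 were within the PBS range. The log2 fold change was 0.68 (SE 0.17, 95% interval 0.32 to 1.05, edgeR adjusted p = 0.0170), and it passed the threshold in all 21 fits that each left out 1 mouse. In mice of the SAMP8 name form, means were 42.5 ± 12.1 CPM (n = 10) and 71.5 ± 20.6 CPM (n = 5), with a log2 fold change of 0.76 (edgeR adjusted p = 0.0599). In the SAMP form, they were 59.4 ± 1.01 CPM (n = 2) and 71.2 ± 32.9 CPM (n = 4), with a log2 fold change of 0.32 (edgeR adjusted p = 0.856). In that form the treated mice were at 117 (female 98), 72.4, 49.3 and 45.7 CPM and the PBS mice at 60.1 and 58.7 CPM, so 2 treated mice lay above and 2 below both PBS mice. With the name form as a covariate, Reln passed with a log2 fold change of 0.63 (edgeR adjusted p = 0.0419).

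Vip, the peptide of a class of interneurons that inhibits other interneurons (ENSMUSG00000019772, chr10:5639218-5647617, plus strand), was lower after HsTX1[R14A], at 0.714 of the PBS level. It ran from 25.4 to 62.9 CPM in PBS mice (median 37.4, mean 39.1 ± 11.5, SD, n = 12) and from 16.1 to 45.2 CPM in HsTX1[R14A] mice (median 31.3, mean 29.7 ± 10.4, SD, n = 9). In 7 of 9 treated mice Vip was below the PBS median, and 3 (male 88, females 71 and 72) lay below every PBS mouse. The log2 fold change was -0.49 (SE 0.18, 95% interval -0.85 to -0.12, edgeR adjusted p = 0.0410). It was -0.74 in the SAMP8 name form (edgeR adjusted p = 0.0627) and -0.15 in the SAMP form (edgeR adjusted p = 0.880). It passed with the name form as a covariate (-0.60, edgeR adjusted p = 0.0439) and did not pass without the sex term (-0.40, edgeR adjusted p = 0.117). The call was kept in 11 of 21 fits that each left out 1 mouse. It was lost without PBS female 73, 104 or 85, PBS male 101 or 90, HsTX1[R14A] female 71 or 72, or HsTX1[R14A] male 74, 88 or 81, with an edgeR adjusted p of up to 0.0897 (without PBS male 90).

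Pvalb, the calcium buffer of fast-spiking interneurons and of Purkinje cells (ENSMUSG00000005716, chr15:78191114-78206400, minus strand), had a log2 fold change close to that of Vip but did not pass. It ran from 41.9 to 124 CPM in PBS mice (median 64.6) and from 34.2 to 118 CPM in HsTX1[R14A] mice (median 43.1). Of the treated mice, 7 of 9 lay below the PBS median and 4 below every PBS mouse, whereas male 74 at 118 CPM exceeded all PBS mice but 1. The log2 fold change was -0.48 (SE 0.22, 95% interval -0.92 to -0.03, edgeR adjusted p = 0.0888). Without HsTX1[R14A] male 74, the mouse with the highest cerebellar marker sum (1355 CPM), Pvalb passed, with a log2 fold change of -0.65 (edgeR adjusted p = 0.0304). The part of cerebellar tissue in the Pvalb values was not tested.

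The other peptides and Lamp5 showed smaller differences. Sst, the peptide of dendrite-targeting interneurons (ENSMUSG00000004366, chr16:23889573-23890958, minus strand), ran from 140.0 to 229 CPM in PBS mice (median 189) and from 148 to 243 CPM in HsTX1[R14A] mice (median 190.3). Its log2 fold change was 0.01 with a 95% interval of -0.21 to 0.23 (edgeR adjusted p = 0.936). Npy, neuropeptide Y (ENSMUSG00000029819, chr6:49822710-49829507, plus strand), ran from 54.7 to 93.4 CPM and from 34.4 to 110.0 CPM in the PBS and HsTX1[R14A] groups, and its log2 fold change was -0.12 (95% interval -0.45 to 0.20, edgeR adjusted p = 0.545). Cck, cholecystokinin (ENSMUSG00000032532, chr9:121489824-121495694, minus strand), ran from 118 to 285 CPM and from 120 to 221 CPM, with a log2 fold change of -0.17 (95% interval -0.47 to 0.14, edgeR adjusted p = 0.374). Lamp5 (ENSMUSG00000027270, chr2:136052239-136069917, plus strand) ran from 70.0 to 201 CPM and from 45.2 to 205 CPM, with a log2 fold change of -0.11 (95% interval -0.57 to 0.35, edgeR adjusted p = 0.713). The lowest Lamp5 and Npy values of all mice came from HsTX1[R14A] female 71, and the lowest Lamp5 value among PBS mice came from female 103. Lamp5 also had the widest spread between mice, with a biological coefficient of variation of 0.341, and Sst the narrowest, with 0.172.

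When PBS female 103 and HsTX1[R14A] female 71 and male 74 were left out together, a choice made after seeing the data, 1 of the 10 genes passed. Reln had a log2 fold change of 0.62 (edgeR adjusted p = 0.0448), Slc32a1 0.57 (0.0758), Vip -0.41 (0.123) and Pvalb -0.60 (0.0533), the values in parentheses being edgeR adjusted p.

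The sexes were compared for the same genes. Between females and males, 0 of the 10 passed (edgeR, and 0 by limma/voom or DESeq2), where 0.0553% of all genes did (0.0246% higher and 0.0307% lower in females). At an unadjusted p under 0.05 (edgeR), the sex term gave 2 members and 1763 of 16285 genes. Reln was higher in females by 0.39 on the log2 scale (64.2 against 50.7 CPM) and the female minus male difference of Vip was -0.46 (30.1 against 38.8 CPM), each with an edgeR adjusted p of 0.446. A test of whether the treatment difference itself differed between sexes passed for no member (0 of 10 by edgeR and by limma/voom, and 0% of all genes). With 3 treated females this test was imprecise, with SEs from 0.22 (Sst) to 0.45 (Lamp5) on the log2 scale, so a difference between sexes is not excluded. At an unadjusted p under 0.05 there were 0 members by either method, against 267 genes by edgeR and 251 by limma/voom. Within females, Reln ran from 30.7 to 62.1 CPM in 6 PBS mice and from 83.5 to 117 CPM in 3 HsTX1[R14A] mice, with no overlap. Within males it ran from 29.6 to 58.7 CPM in 6 PBS mice and from 37.1 to 77.4 CPM in 6 HsTX1[R14A] mice. The log2 fold change of Reln was 1.02 (SE 0.23, edgeR adjusted p = 0.244) in females and 0.46 (SE 0.22, edgeR adjusted p = 0.188) in males, and the difference between them, 0.56 (SE 0.35), had an edgeR adjusted p of 1.00. Pvalb in females ran from 41.9 to 90.3 CPM with PBS and from 35.8 to 40.0 CPM with HsTX1[R14A], also with no overlap, and its log2 fold change was -0.80 (edgeR adjusted p = 0.244). The share of all genes with no overlap between these 6 and 3 females was not counted. Fits within 1 sex called 0 members and 0% of all genes. At an unadjusted p under 0.05 (edgeR), they gave 3 members and 3312 of 16209 genes in females. In males they gave 1 member and 4440 of 16102 genes.

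The libraries differed in the relative level of long and short transcripts. In every library the slope of centered log2 CPM on log2 transcript length was taken over all genes, and a positive slope means that long transcripts were relatively more abundant. The slope averaged -0.08 ± 0.16 (SD, n = 12, range -0.38 to 0.15) in PBS mice and 0.10 ± 0.12 (SD, n = 9, range -0.14 to 0.24) in HsTX1[R14A] mice. The difference averaged over sexes was 0.20 (p = 0.00582 by a two-sided permutation test that exchanged treatments within each sex 100000 times). Within a name form, the plain difference of means, without regard to sex, was 0.19 for SAMP8 (exact permutation test, p = 0.0546). For SAMP it was 0.09 (exact permutation test, p = 0.333, the smallest possible being 0.0667). These values are a different measure from the 0.20 over all mice.

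Among the 12 PBS mice alone, where treatment could not enter, 3 of the 10 genes moved with this slope by either coefficient. The slope is itself taken from the levels of all genes, and the share of all genes that moved with it was not counted. Reln, the longest, rose with it (Pearson r = 0.840, permutation p = 0.00015, adjusted over the 10 genes 0.0015; Spearman rho = 0.916, permutation p = 8.0e-05, adjusted 0.0008). Pvalb, with a transcript of 977 bases, fell with it (r = -0.777, permutation p = 0.00345, adjusted 0.0172; rho = -0.755, permutation p = 0.00615, adjusted 0.0205). Slc32a1, of intermediate length at 2797 bases, rose with it (r = 0.676, permutation p = 0.0150, adjusted 0.04997; rho = 0.762, permutation p = 0.00568, adjusted 0.0205). With the 2 libraries of most extreme slope set aside, r was 0.785 for Reln, -0.664 for Pvalb and 0.653 for Slc32a1, and none of these passed after adjustment (adjusted permutation p = 0.0707, 0.109 and 0.109), with 10 mice in place of 12. By Spearman's rho, Reln still passed (rho = 0.867, adjusted permutation p = 0.0196), while Pvalb and Slc32a1 did not (adjusted permutation p = 0.226 and 0.0855). Within the 10 PBS mice of the SAMP8 name form, r was 0.836 for Reln (adjusted permutation p = 0.0184), -0.783 for Pvalb (0.0367) and 0.648 for Slc32a1 (0.112). Sst, the second shortest of the 10, had r = -0.550 over the 12 PBS mice (permutation p = 0.0643, adjusted 0.161; rho = -0.517, permutation p = 0.0887, adjusted 0.177).

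**Figure D3:**
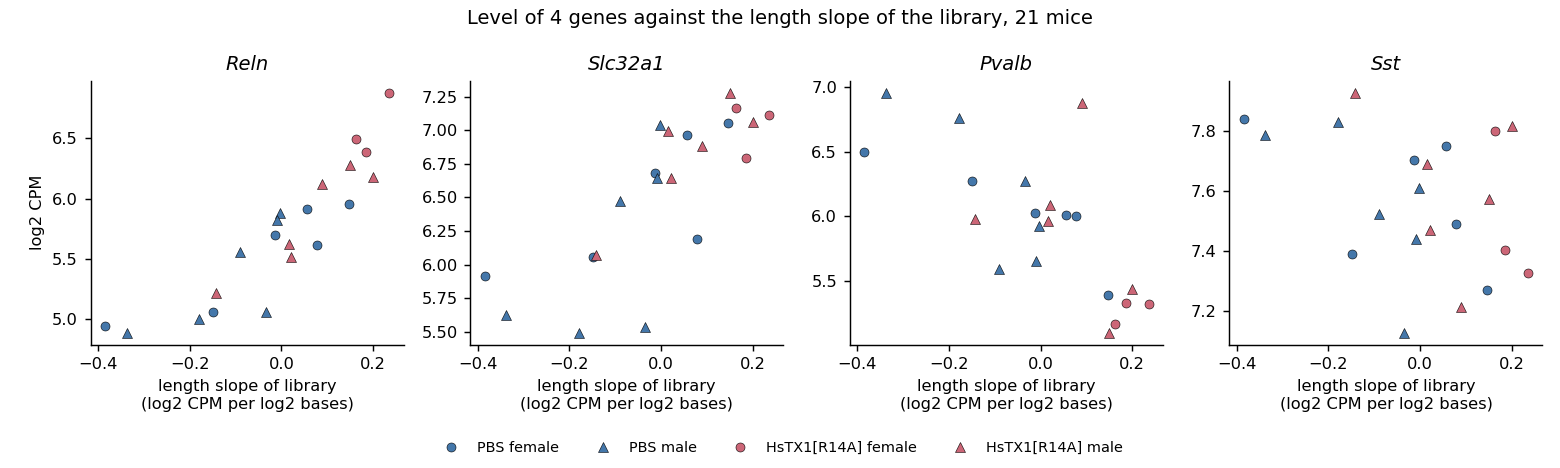
Log2 CPM of Reln, Slc32a1, Pvalb and Sst against the length slope of each library (log2 CPM per log2 bases) in 21 mice, colored by treatment and with circles for females and triangles for males. Reln climbs with the slope in PBS mice (r = 0.840) and Pvalb declines (r = -0.777), and HsTX1[R14A] mice lie toward higher slopes.

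With the length slope of each library added to the model, 0 of the 10 genes and 0% of all genes passed (edgeR, with 0 members and 1866 genes at an unadjusted p under 0.05). The log2 fold changes were then 0.19 for Reln (edgeR adjusted p = 0.577), 0.10 for Slc32a1 (0.852), -0.30 for Vip (0.579) and -0.02 for Pvalb (0.982). The slope and the treatment move together in these mice, so this model also takes out part of any treatment difference. When instead the length trend of each library was removed before testing, 3 of the 10 genes passed, against 23.5% of all genes. Reln was at 0.31 (edgeR adjusted p = 0.0379), Slc32a1 at 0.60 (0.0374) and Sst at 0.40 (0.0231), the last of which was at 0.01 before. Vip was at -0.42 and no longer passed (edgeR adjusted p = 0.0782), and Npy and Cck changed sign to 0.32 and 0.18 without passing (edgeR adjusted p = 0.221 and 0.411).

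**Figure D4:**
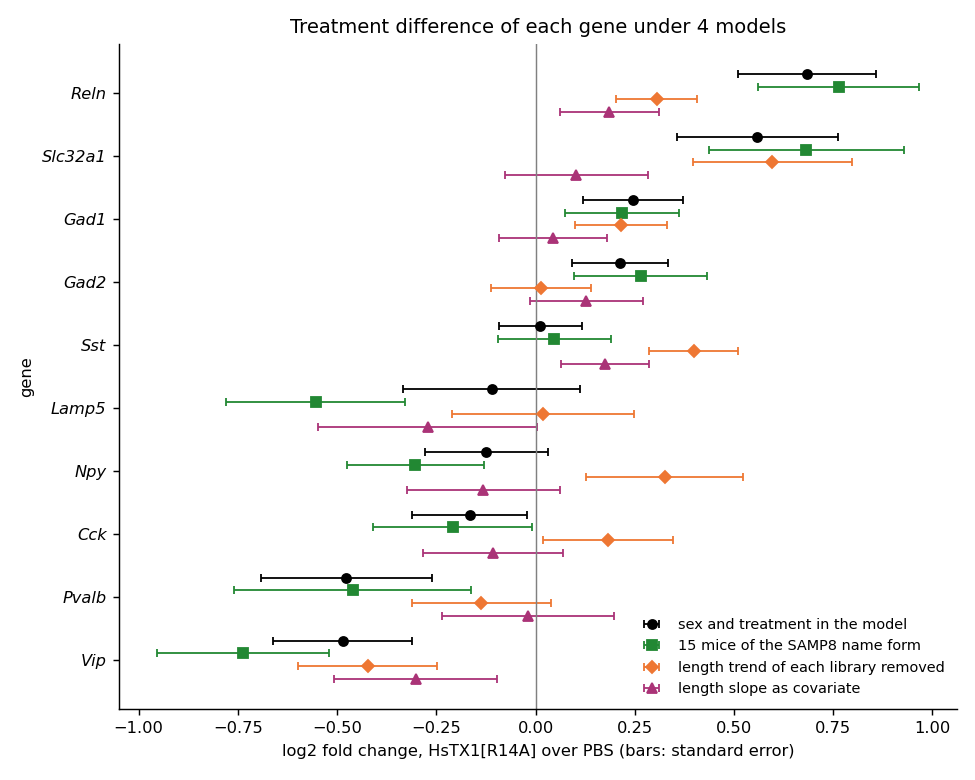
Treatment difference of each gene as a log2 fold change, HsTX1[R14A] against PBS (bars are standard errors), in 4 models, namely sex and treatment alone, the 15 mice of the SAMP8 name form, the length trend of each library removed, and the length slope as a covariate. Reln moves from 0.68 to 0.19 with the slope as covariate, and Sst from 0.01 to 0.40 with the trend removed.

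Some of the 10 genes moved together among PBS mice. Of 45 pairs, 10 passed by Pearson's r and 6 by Spearman's rho (permutation tests, adjusted over the 45 pairs, n = 12). The share of passing pairs among all genes in these libraries was not counted. Slc32a1 and Reln were the closest pair (r = 0.940, permutation p = 5.0e-05, adjusted 0.00225; rho = 0.902, permutation p = 0.0001, adjusted 0.0045; r = 0.943 without the 2 farthest mice and 0.922 in the SAMP8 name form). By both coefficients, Gad1 also moved with Slc32a1 (r = 0.894, adjusted permutation p = 0.00371) and with Gad2 (r = 0.834, 0.00371). By both coefficients, Pvalb ran against Reln (r = -0.848, adjusted permutation p = 0.00371) and against Slc32a1 (r = -0.806, 0.0114). The other pairs passed by 1 coefficient only. Gad1 with Reln (r = 0.838, adjusted permutation p = 0.0125, and 0.0605 for rho), Gad2 with Slc32a1 (r = 0.799, 0.00882, and 0.0830 for rho), Cck with Lamp5 (r = 0.770, 0.0173, and 0.0655 for rho), Cck against Gad2 (r = -0.748, 0.0173, and 0.0778 for rho) and Pvalb with Vip (r = 0.708, 0.0436, and 0.149 for rho) passed by r. For Pvalb and Vip, r was 0.285 without the 2 farthest mice. Npy with Cck passed by rho (0.769, adjusted permutation p = 0.0399) and not by r (0.644, adjusted permutation p = 0.0788). Sst passed with no other member. Since Reln, Slc32a1 and Pvalb each moved with the length slope, their pairs share that property of the library, and its part was not tested.

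**Figure D5:**
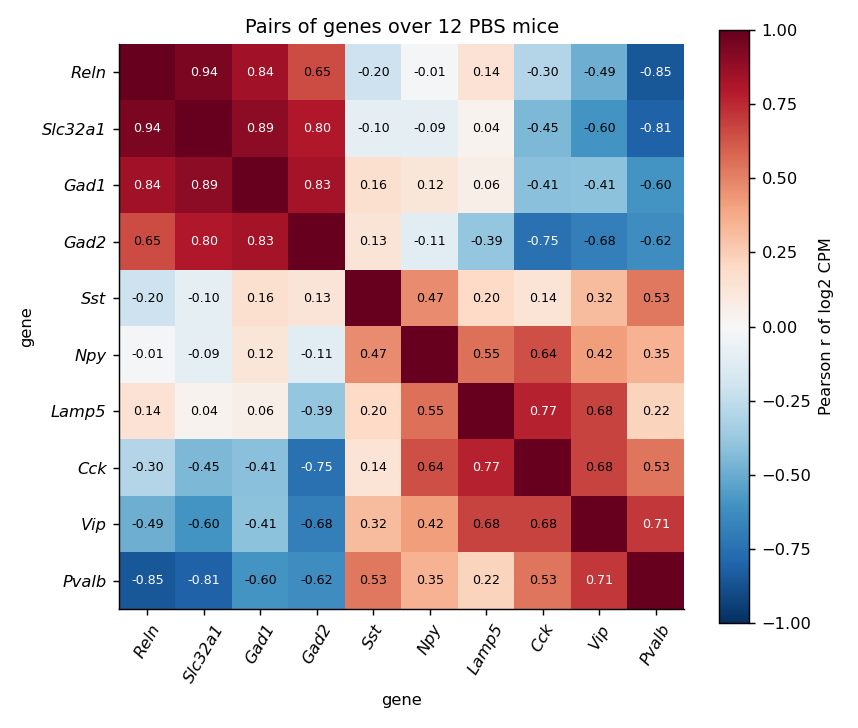
Pearson r of log2 CPM for each pair of the 10 genes over 12 PBS mice, from -1 (blue) to 1 (red). Reln, Slc32a1, Gad1 and Gad2 form a red block, with r of 0.940 for Slc32a1 and Reln, and Pvalb is blue against it.

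Over all 21 mice, with each value centered on its treatment and sex group, the genes most like each member were found among all genes tested, as a description over mice that share library properties. Sv2c, a synaptic vesicle glycoprotein with a transcript of 9101 bases, was the most alike to both Reln (r = 0.946) and Slc32a1 (r = 0.937), and Grik3, a kainate receptor subunit, was next for Reln (r = 0.942). Acly, the enzyme that makes cytosolic acetyl-CoA, was next for Slc32a1 (r = 0.928). Gad1 was closest to Tpbg (r = 0.912) and Sp9 (r = 0.895), and Gad2 to the substance P receptor Tacr1 (r = 0.916) and Slc10a4 (r = 0.905). Lamp5 was closest to the transcription factor Mef2c (r = 0.968) and Gm11549 (r = 0.964), Vip to 3110035E14Rik (r = 0.964) and Osbpl1a (r = 0.950), and Cck to St3gal5 (r = 0.907) and the SNARE protein Snap25 (r = 0.892). For Pvalb (Zranb1, r = 0.849; Nrep, r = 0.838), Sst (Oscp1, r = 0.870; Cd3eap, r = 0.841) and Npy (Fam124a, r = 0.870; Ctxn1, r = 0.868) the nearest genes were less alike.

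Genes that act with the 10 members were read from fixed lists, against 15.5% of all genes higher and 16.1% lower and a median log2 fold change of -0.01 over all genes. Of 16 genes of GABA handling and the inhibitory synapse, 6 rose and 0 fell, with a median of 0.26. The receptor subunit Gabrb2 rose from 77.0 ± 15.6 to 103 ± 6.70 CPM (log2 fold change 0.43, edgeR adjusted p = 0.0160), and the glutamine transporter Slc38a1 from 136 ± 36.3 to 194 ± 40.8 CPM (log2 fold change 0.56, edgeR adjusted p = 0.0185). Of 16 interneuron transcription factors, 2 rose and 0 fell (median 0.30), among them Lhx6 (0.37, edgeR adjusted p = 0.0232, and -0.00957 in the SAMP name form). Of 16 receptors and adaptors for the peptides and reelin, 6 rose and 0 fell (median 0.24), among them the somatostatin receptors Sstr2 (0.39, edgeR adjusted p = 0.0221) and Sstr1 (0.35, edgeR adjusted p = 0.0249, and -0.172 in the SAMP name form).

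Of 24 other markers of interneuron classes, 5 rose and 1 fell (median 0.12). The neuregulin receptor Erbb4 rose with a log2 fold change of 0.36 (edgeR adjusted p = 0.0150) and was at -0.02 once the length trend was removed, its longest transcript being 12037 bases. Elfn1, a synaptic adhesion protein, rose by 0.56 on that scale (edgeR adjusted p = 0.0162). Of 13 genes that process peptides or build dense-core granules, 6 rose and 0 fell (median 0.16), including the prohormone convertase Pcsk1 (0.47, edgeR adjusted p = 0.0197) and the granin Vgf (0.98, edgeR adjusted p = 0.0209), which ran from 38.0 to 231 CPM with PBS and from 67.8 to 308 CPM with HsTX1[R14A].

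Markers of other cells were read beside these counts. Of 8 general neuron markers, 3 rose and 0 fell, with Eno2 at 0.37 and Syp at 0.30 (edgeR adjusted p = 0.0175 and 0.0275, Syp being at -0.00915 in the SAMP name form). Of 8 excitatory, 8 striatal and 8 cerebellar markers and of 7 hypothalamic peptides tested, 0 passed (edgeR), with median log2 fold changes of 0.19, 0.02, 1.05 and -0.06. All 8 cerebellar markers had positive log2 fold changes, and their median was the largest of the lists read here. Their sum ran from 232 to 715 CPM with PBS (median 536) and from 418 to 1355 CPM with HsTX1[R14A] (median 660.4). Most of the sum in PBS mice came from Itpr1, with a mean of 475 CPM. The value of 1355 CPM was that of male 74 alone, and the next treated mouse, male 81, was at 717 CPM. Pcp2, Gabra6, Ppp1r17 and Cbln3 were near the floor in PBS mice, with means of 0.84, 1.70, 1.90 and 2.10 CPM. Of 6 astrocyte markers 3 fell, of 6 oligodendrocyte markers 3 fell and of 6 microglia markers 1 fell, and none passed as higher. Those of smallest p-value were S100b (-0.72, edgeR adjusted p = 0.0152), Mobp (-0.67, edgeR adjusted p = 0.0145) and P2ry12 (-0.65, edgeR adjusted p = 0.0150). In each of these lists 1 marker had a positive log2 fold change without passing (Aldh1l1 0.15, Mag 0.08 and Csf1r 0.28). The summed oligodendrocyte markers ran from 4277 to 6608 CPM with PBS and from 3243 to 4783 CPM with HsTX1[R14A]. Of 6 endothelial markers 1 rose (Flt1, 0.64, edgeR adjusted p = 0.0190) and of 6 olfactory bulb markers 1 rose (Tpbg, 0.40, edgeR adjusted p = 0.0258). The part of these marker differences in the values of Reln, Slc32a1 and Vip was not tested.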

How the data were processed

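RNA from whole brains of 21 SAMP8 mice (12 PBS, 9 HsTX1[R14A]) was sequenced by the authors, 1 library per mouse. Per the labels and the study's methods, the authors used STAR and Salmon with GRCm38 (versions not given in the sources used here) and deposited unnormalized estimated counts for 16318 genes. Another 53 per-sample columns (37 of CPM, 16 of counts) and the authors' own comparison columns (fold change, p-value, FDR) were not used. Of the estimated counts, 90.5% were whole to within 0.01, and the rest were rounded.

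After filterByExpr (16285 genes left) and TMM scaling, treatment and sex were tested in edgeR 4.0.16 (glmQLFit, glmQLFTest; R 4.3.3), and p-values were adjusted over all genes at an FDR of 0.05. Log2 CPM carries a prior count of 2. Transcript lengths are from GENCODE for GRCm38, and the length trend was a loess fit (span 0.5). Promoter windows are from RefSeq. The 2 genes most like each member, and up to 2 genes of smallest p-value in each list, were named by rule, and all 10 members are reported. A gene that the rule for the lists selects is not reported here. Genes overlapping members (such as Gad1os and Gm14205 on the opposite strand) were not in the table, and the strand setting of the counting is not given in the sources used here. Over 48 pairs of mice of 1 group, the mean chi-square per gene was at least 7.58, so no pair agreed within sampling noise.

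The members, lists and tests were chosen with earlier results of these data known. Alternatives were limma/voom 3.58.1, DESeq2 1.42.0, relative log expression (RLE) scaling, other count filters, no sex term, library name form, length slope or 1 surrogate variable (sva 3.50.0) as covariate, and each mouse left out. On data simulated for HsTX1[R14A] against PBS (16263 genes), 189 of 200 genes changed 2-fold were recovered, with 11 false calls. The simulated libraries held no differences in length slope, name form or regional markers. The largest difference of a member was 1.61-fold (Reln), so these rates do not carry over to the members.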

Additional observations from a re-analysis of the deposited data

How the results depend on the processing

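Per the study's methods, treatments were randomized among the mice of a cage. The labels do not give the cage, and each mouse number occurs once, so no paired or cage-matched analysis was possible. The number of the 10 genes that passed for treatment, 3, was also 3 with limma/voom, DESeq2, RLE scaling and both other count filters. It was 3 with the length trend removed too, but with Sst in place of Vip. It was 2 with the library name form as covariate (Reln and Vip), 1 without the sex term and 1 without the 3 mice apart in regional markers, and 0 with the length slope or 1 surrogate variable as covariate, in either name form alone and in either sex alone. It ran from 1 to 3 when single mice were left out. Over all genes, 5152 passed, against 2987 without the sex term, 2017 with the name form as covariate, 1825 without the 3 mice, 1118 with 1 surrogate variable, 0 in either name form, 0 with the length slope and 0 in either sex, and from 2300 (without PBS male 90) to 6616 with single mice left out. In the SAMP name form, log2 fold changes turned to -0.0165 for Slc32a1, -0.00957 for Lhx6, -0.172 for Sstr1 and -0.00915 for Syp, and Erbb4 was at -0.0222 with the length trend removed. The cause was not tested. Between sexes, 9 genes passed by edgeR and 22 by DESeq2 (none of them members), and from 7 to 9 with single mice left out. Of the 3 relations with the length slope, 0 passed by Pearson's r and Reln alone by Spearman's rho without the 2 farthest libraries. The slope difference averaged over sexes was 0.20. Within the SAMP8 and SAMP name forms, the plain difference without regard to sex was 0.186 (p = 0.0546, exact permutation test) and 0.0918 (p = 0.333, exact permutation test). With 2 PBS mice in the SAMP form, values there are imprecise, and depth did not limit any member.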
